A study of Mus musculus with 12 samples.

Results

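The p53 pathway was followed in mouse fibro/adipogenic progenitors (FAPs), mesenchymal cells of skeletal muscle, after transfection with antisense oligonucleotides (AMOs). The members were 31 named genes: regulators and transcriptional targets of p53. A gene was read from the transcript cluster whose only platform symbol was that gene. Of the 31 genes, 27 had such a cluster, 1 each, out of 21789 clusters with a single symbol. The annotation used here did not list Trp53, Bax and Gdf15, and the cluster of Cdkn1a carried a second symbol, so these 4 genes were not analysed here. The gene of p53 itself and that of the cell cycle inhibitor p21 are therefore among those without values.

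FAPs came from uninjured hindlimb muscle of wild-type male C57Bl/6 mice aged 8 to 12 weeks, with cells of 2 mice pooled for each biological replicate. They were cultured for 2.5 days, transfected for 48 hours with 10 µM of a control AMO, of the pA AMOs (labelled as directed at a polyadenylation site) or of the 5'ss AMO (at a 5' splice site), and transfected again at the same dose for 48 hours without or with PDGF-AA. The labels give the PDGF-AA dose as 50 uM, a high value for a growth factor that could not be checked here. The study is on intronic polyadenylation of the gene of the receptor PDGFRα, and the labels give neither the sequence nor the chemistry of an AMO. This gave 6 groups of 2 arrays, 12 Affymetrix Mouse Gene 1.0 ST arrays in all, with log2 expression values. Every group received an oligonucleotide and 2 transfections, and no untransfected group was among the samples. The comparisons therefore show how the p53 genes differed between oligonucleotides, and not how transfected cells differ from untreated ones. In such bulk samples, fewer cells of a type and less RNA per cell cannot be told apart.

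p53 is a transcription factor that is held at a low level by the ubiquitin ligase Mdm2 and its partner Mdm4. DNA damage and other stresses release it, and it then turns on genes for cell cycle arrest, DNA repair and cell death, and also Mdm2 itself, which closes a feedback loop. Induction of p53 target genes is a known side effect of some antisense reagents, so these genes serve as a readout of oligonucleotide stress.

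p53 binds a pair of half-sites of 10 bases. Promoter windows of 300 bases (250 before and 50 after the RefSeq transcription start, build GRCm38.p6) were searched for a pair matching the p53 half-site consensus, at most 1 base apart and with at most 3 mismatches in 20 bases. The C and G at the core of each half-site had to be intact. The consensus reads the same on both strands. The windows covered 19 of the 27 measured genes, and 5 of their 28 windows (17.9%) held a match, against 2.82% of all 32851 windows. The pair of Aen windows held the same site. The members were chosen as p53 genes, so the higher share is no test of the list. The 4 genes with a match, Ccng1, Aen, Bbc3 and Sesn1, are shown because the measurements below include them, with the matched bases in capitals. A match is a description of the letters and was not tested for binding.
Ccng1, chr11:40755237-40755536, minus strand, 1 mismatch: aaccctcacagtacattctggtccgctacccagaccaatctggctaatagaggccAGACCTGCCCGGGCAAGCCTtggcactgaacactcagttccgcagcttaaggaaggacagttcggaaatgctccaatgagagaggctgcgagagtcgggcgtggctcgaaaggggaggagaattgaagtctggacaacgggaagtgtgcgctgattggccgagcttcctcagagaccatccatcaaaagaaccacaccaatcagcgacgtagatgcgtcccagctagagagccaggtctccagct
Aen, chr7:78895917-78895976, plus strand, 3 mismatches: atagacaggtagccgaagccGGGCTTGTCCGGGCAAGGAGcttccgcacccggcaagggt
Bbc3, chr7:16309466-16309525, plus strand, 3 mismatches: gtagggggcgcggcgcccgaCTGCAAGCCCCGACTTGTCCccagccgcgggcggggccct
Sesn1, chr10:41887246-41887305, plus strand, 3 mismatches: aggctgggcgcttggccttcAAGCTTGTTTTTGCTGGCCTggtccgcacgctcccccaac
The matches began at position -195 from the start for Ccng1, -97 for Bbc3 and -173 for Sesn1, and at -121 and 10 from the pair of Aen starts. A match with 1 mismatch or fewer, as in Ccng1, was present in 0.11% of all windows.

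The 27 genes differed little between the arrays, and no gene of the list passed the test in any comparison. Their range over the 12 arrays ran from 0.248 for Ccng1 to 0.758 for Sesn1 on the log2 scale. The median range was 0.363, against 0.386 for all clusters above the 40 percent mark of mean signal, and all 27 genes lay above that mark (a mean log2 of 6.10). In limma, across 16 comparisons of AMOs, PDGF-AA and their combinations, 0 of 27 genes had an adjusted p under 0.05, where 0% of the 21789 clusters passed as well. With the replicate number as a block the count was again 0 of 27 in all 16, while the share of all clusters was 0.0138% for 5'ss against control AMO averaged over PDGF-AA, 0% for pA against control AMO, and 0.0275% for pA against 5'ss AMO. In cells given PDGF-AA the share was 0.101% for 5'ss against control AMO, 0% for pA against control AMO and 0.0138% for pA against 5'ss AMO, and without PDGF-AA it was 0.00459%, 0% and 0.00459%. It was 0.0964% for PDGF-AA averaged over AMOs, and 0% within each AMO and for the 3 differences between PDGF-AA effects. The smallest adjusted p of a member was 0.167, for Sesn1 with PDGF-AA under control AMO, with the block. Intervals were taken per gene from the fit without the block (95%, not adjusted for the number of genes). In the 3 averaged comparisons between AMOs all 81 intervals lay within a 1.5-fold change either way. None of the 81 reached further than 0.493 or -0.395 on the log2 scale. A difference of 1 log2 unit, a doubling or halving, lay outside all 243 intervals of the 9 comparisons between AMOs.

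**Figure D1:**
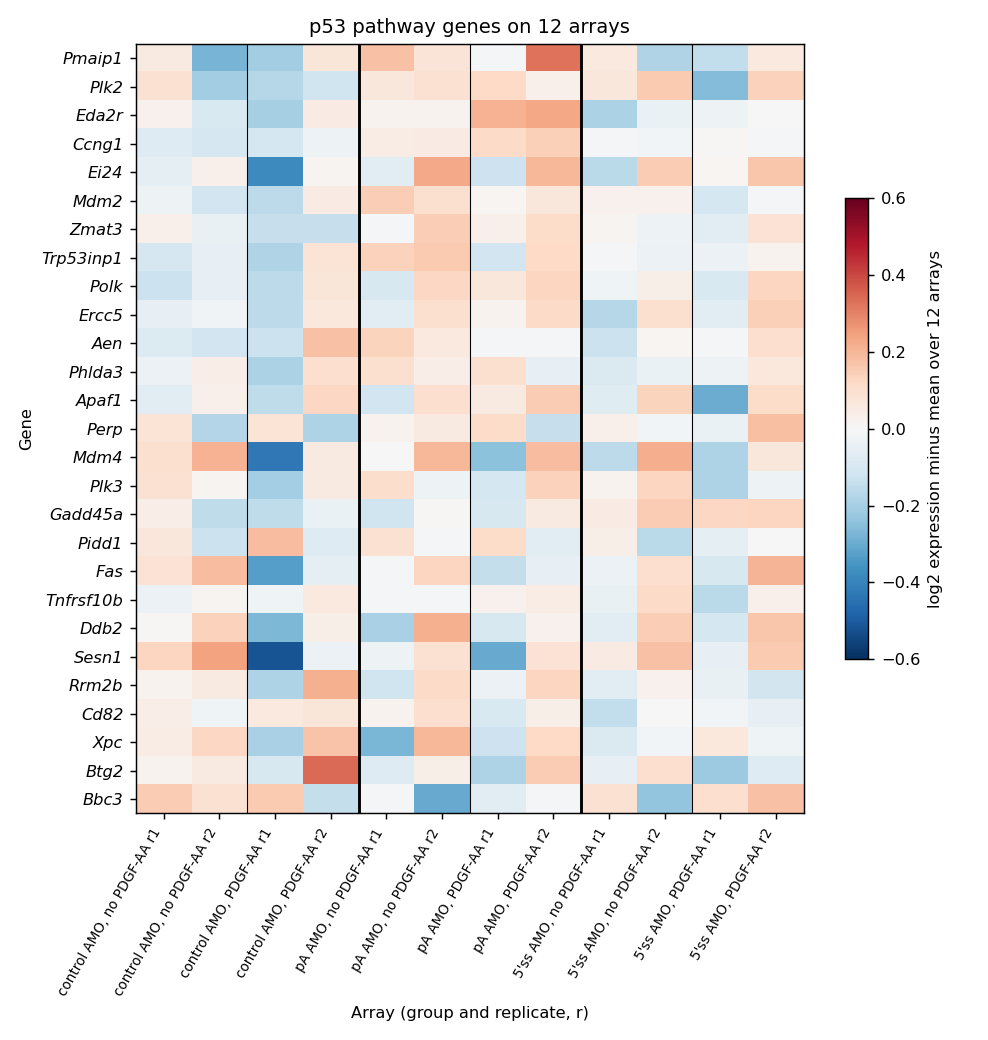
Log2 expression of the 27 p53 pathway genes on the 12 arrays, as the difference from each gene's mean (colour, log2 units), with groups along the x axis (r is the replicate) and genes on the y axis, ordered by the pA minus control change. The column of control AMO with PDGF-AA replicate 1 holds the lowest value of 15 genes, a count for which no share over all clusters was taken.

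Mdm2 and Mdm4, the inhibitors of p53, come first. Mdm2 stood at 10.86 and 10.77 with control AMO and at 11.04 and 10.99 with pA AMO without PDGF-AA, and at 10.92 on both arrays with 5'ss AMO (log2 expression, replicates 1 and 2). With PDGF-AA it stood at 10.73 and 10.94, at 10.90 and 10.96, and at 10.79 and 10.89 in the same order of AMOs. Without PDGF-AA the pA arrays were thus above both other AMOs, while with PDGF-AA they overlapped with the control arrays and lay just above the 5'ss arrays. Averaged over PDGF-AA, Mdm2 differed between pA and control AMO by 0.15 (SE 0.071, 4 arrays against 4, adjusted p = 1 in limma), a value that did not pass. For 5'ss against control AMO the difference was 0.050 (SE 0.071), and it was -0.0020 without control AMO with PDGF-AA replicate 1. Mdm4 ranged from 7.53 to 8.18, and AMO accounted for 1.4% of its variance over the 12 arrays against 58.8% for the replicate number. It was 0.052 (SE 0.142) with pA and 0.0030 (SE 0.142) with 5'ss against control AMO.

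Ccng1, the gene of cyclin G1 and a strong p53 target, kept the 3 AMOs apart on all 12 arrays. Its log2 level on the 4 control arrays was 12.02, 11.99, 11.99 and 12.06 (without PDGF-AA replicates 1 and 2, then with it). The 5'ss arrays read 12.08, 12.08, 12.10 and 12.08, and the pA arrays 12.14, 12.14, 12.21 and 12.24 in the same order. All 4 pA arrays were above all 4 5'ss arrays, and these were above all 4 control arrays, with AMO accounting for 83.2% of the variance. The steps were small: pA differed from control AMO by 0.17 (SE 0.060), pA from 5'ss AMO by 0.095 (SE 0.060) and 5'ss from control AMO by 0.069 (SE 0.060). None passed in limma (adjusted p = 1, 1 and 0.995, and 0.448, 0.645 and 0.586 with the replicate block). The difference between pA and control AMO was at least 0.145 when any single array was left out.

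Gadd45a, a stress sensor of growth arrest and DNA repair, was highest with 5'ss AMO. Its 5'ss arrays read 8.97, 9.08, 9.05 and 9.05, its control arrays 8.96, 8.77, 8.77 and 8.89, and its pA arrays 8.80, 8.93, 8.83 and 8.98 (without PDGF-AA replicates 1 and 2, then with it). The lowest 5'ss array lay just above the highest control array and below the highest pA array. The difference between 5'ss and control AMO was 0.19 (SE 0.077, adjusted p = 0.995, and 0.327 with the block, in limma), and pA differed from 5'ss AMO by -0.15 (SE 0.077). Of the other arrest and growth genes none kept the AMOs apart on all arrays. Against control AMO, Btg2, an antiproliferative gene, was at -0.098 (SE 0.111) with pA and -0.14 (SE 0.111) with 5'ss AMO, and the kinase gene Plk2 was at 0.18 and 0.13 (SE 0.10 each). The 5'ss value of Btg2 ran from -0.25, without control AMO with PDGF-AA replicate 1, to -0.032, without replicate 2 of that group. Plk3 was at 0.036 and -0.0070 (SE 0.090 each), and Sesn1, a sestrin that restrains mTORC1 signalling, at 0.0060 and 0.13 (SE 0.123 each).

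Among the death genes, Eda2r, a receptor of the tumour necrosis factor receptor family, was highest in pA cells given PDGF-AA. There it stood at 9.05 and 9.07, against 8.86 on both pA arrays without PDGF-AA. The control arrays read 8.86 and 8.74 without PDGF-AA and 8.64 and 8.88 with it, and the 5'ss arrays 8.65, 8.79, 8.80 and 8.83. All 4 pA arrays were above all 4 5'ss arrays, and they overlapped with the control arrays. The difference was 0.19 (SE 0.077) from 5'ss AMO and 0.18 (SE 0.077) from control AMO, with adjusted p = 1 for both in limma. The pA to control difference was 0.11 without control AMO with PDGF-AA replicate 1, more than 1.5 times smaller.

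Pmaip1 and Bbc3 encode Noxa and Puma, BH3-only proteins that trigger apoptosis. Pmaip1 had the largest difference of the list between pA and control AMO averaged over PDGF-AA, 0.23 (SE 0.117). Its pA arrays (8.73, 8.63, 8.55 and 8.88) overlapped with its control arrays (8.61, 8.28, 8.35 and 8.63). Bbc3 was at -0.16 (SE 0.104) with pA AMO, with arrays of 6.30, 6.01, 6.24 and 6.30 against 6.46, 6.40, 6.46 and 6.16, which also overlapped. With 5'ss AMO they were at 0.037 (SE 0.117) and -0.032 (SE 0.104).

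Of the other death and stress genes, Trp53inp1, an activator of p53 and autophagy, was at 0.14 (SE 0.082) with pA AMO, and Zmat3, an RNA-binding p53 target, at 0.14 (SE 0.071). Ei24, a membrane protein of the endoplasmic reticulum, was at 0.16 (SE 0.123). With 5'ss AMO these 3 genes were at 0.049, 0.076 and 0.14. The death receptor genes Fas and Tnfrsf10b were at 0.011 (SE 0.094) and 0.010 (SE 0.073) with pA AMO, and at 0.072 and -0.020 with 5'ss AMO. Values for the Akt inhibitor gene Phlda3, the tetraspan gene Perp, the nuclease gene Aen, the caspase adaptor gene Pidd1, the apoptosome gene Apaf1 and the tetraspanin gene Cd82 lay between -0.020 and 0.082 with pA AMO and between -0.090 and 0.088 with 5'ss AMO. There were 5 genes of DNA repair and nucleotide supply. Polk, a translesion polymerase, was at 0.12 (SE 0.086) with pA AMO. Ercc5, Ddb2, Rrm2b and Xpc lay between -0.057 and 0.082 with pA AMO, and all 5 lay between -0.075 and 0.078 with 5'ss AMO.

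**Figure D2:**
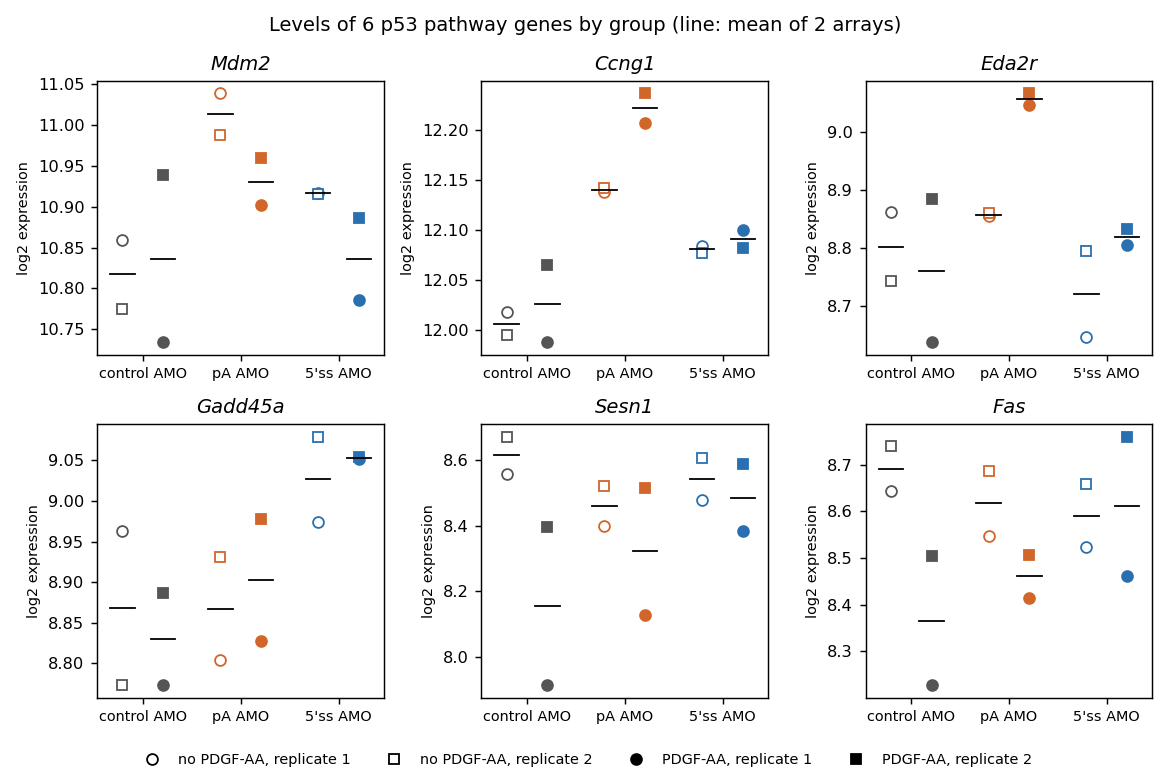
Log2 expression of 6 p53 pathway genes (y axis, with its own scale in each panel that does not start at 0) by AMO (x axis and colour), with open symbols for no PDGF-AA, filled symbols for PDGF-AA, circles for replicate 1, squares for replicate 2 and lines for the mean of 2 arrays. Ccng1 is the panel in which the 3 AMOs do not overlap, with pA arrays from 12.14 to 12.24, and in the Sesn1 and Fas panels control AMO with PDGF-AA replicate 1 is lowest, at 7.91 and 8.23.

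For the list as a whole, pA AMO was compared with control AMO. Averaged over PDGF-AA, 22 of 27 genes were above 0, where 45.1% of all clusters were, and the median change was 0.061 against -0.011 over all clusters. Within replicates 1 and 2 taken alone, 19 of 27 were above 0 in each (46% and 47.6% of all clusters), with medians of 0.054 and 0.062. These were not all the same genes: 13 of 27 were above 0 in both replicates and 2 were below 0 in both, while the rest differed in sign. No share over all clusters is given for these 2 counts. The count was 14 of 27, with a median of 0.0060, without control AMO with PDGF-AA replicate 1, and 16 of 27 (median 0.017) when the replicate block was kept as well. Only Ccng1 had higher values on all 4 pA arrays than on all 4 control arrays, 1 of 27 where 0.945% of clusters did, and 0 of 27 had lower ones, where 1.71% did. An unadjusted p under 0.05 was found in 2 of 27 genes, Ccng1 and Eda2r, against 3.25% of all clusters. Without PDGF-AA, 5 of 27 genes were higher and 2 lower on both pA arrays than on both control arrays (10.5% and 12.3% of clusters), among them Mdm2 and Trp53inp1, at 0.20 (SE 0.101) and 0.22 (SE 0.116), and Bbc3, at -0.28 (SE 0.147). Leaving out replicate 2 of that pA group gave -0.13 for Bbc3, and leaving out its replicate 1 gave -0.42. With PDGF-AA 4 were higher and 1 lower (12.3% and 19.2%), with Eda2r at 0.30 (SE 0.108), Zmat3 at 0.21 (SE 0.10) and Ccng1 at 0.20 (SE 0.086). Without control AMO with PDGF-AA replicate 1 the Eda2r value was 0.17. An unadjusted p under 0.05 was found in 0 of 27 without PDGF-AA (1.49% of clusters) and in 2 of 27, Eda2r and Ccng1, with it (4.89%). At the separate doses, 17 of 27 genes were above 0 without PDGF-AA (all clusters 49.9%, median 0.053) and 22 of 27 with it (44.1%, median 0.089). The last median was -0.022 without control AMO with PDGF-AA replicate 1 and 0.22 without replicate 2 of that group.

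The 5'ss AMO was compared with the same control arrays. Averaged over PDGF-AA, 16 of 27 genes were above 0 against 46.6% of all clusters, and the median change was 0.037 against -0.0080. The count was 11 of 27 and the median -0.017 without control AMO with PDGF-AA replicate 1, and 23 of 27 and 0.089 without replicate 2 of that group, so the sign of the median rests on single arrays. The count was also 11 of 27 without replicate 2 of the 5'ss group given PDGF-AA. Gadd45a and Ccng1 were higher on all 4 5'ss arrays than on all 4 control arrays, 2 of 27 where 1.26% of clusters were, and 0 of 27 were lower (1.71%). An unadjusted p under 0.05 was found in 1 of 27, Gadd45a, against 4.80% of all clusters. Without PDGF-AA 5 of 27 were higher and 2 lower with no overlap (12.6% and 11.1% of clusters), and with it 3 were higher and 1 lower (12.5% and 17.7%). Gadd45a was among the higher ones at both doses, at 0.16 and 0.22 (SE 0.109 each). Leaving out replicate 2 of the control group that had no PDGF-AA gave 0.063 for the first of these, leaving out its replicate 1 gave 0.25, and within replicate 1 it was 0.011. An unadjusted p under 0.05 was found in 0 of 27 at either dose (2.07% of clusters without and 6% with PDGF-AA). The median was 0 without PDGF-AA, with 14 of 27 above 0 (51.0% of all clusters), and 0.062 with it, with 19 of 27 above 0 (44.4%). This last median was -0.065 without control AMO with PDGF-AA replicate 1 and 0.16 without replicate 2 of that group.

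Between pA and 5'ss AMO, which does not use the control arrays, 20 of 27 genes were above 0 (all clusters 49.5%) with a median of 0.048. Eda2r and Ccng1 were higher on all 4 pA arrays than on all 4 5'ss arrays, 2 of 27 where 0.996% of clusters were, and 0 of 27 were lower (1.65%). Eda2r alone had an unadjusted p under 0.05, 1 of 27 against 3.47% of clusters. Without PDGF-AA 8 of 27 were higher and 1 lower with no overlap (9.09% and 10.9% of clusters), and with it 4 were higher and 2 lower (14.9% and 14.9%). Gadd45a was lower at both doses, at -0.16 and -0.15 (SE 0.109 each). The unadjusted count was 0 of 27 at either dose (1.82% and 3.83% of clusters). At each dose 18 of 27 were above 0, with medians of 0.030 without and 0.032 with PDGF-AA (48.9% and 48.7% of all clusters). Leaving out 1 array took these medians from -0.032 (replicate 2 of the pA group that had no PDGF-AA left out) to 0.10 and from -0.021 (without replicate 1 of the 5'ss group given PDGF-AA) to 0.10. The averaged median lay between 0.0040, without replicate 1 of the 5'ss group given PDGF-AA, and 0.083, without replicate 2 of that group. The averaged count of 20 was 14 and 23 of 27 without these arrays.

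The counts at an unadjusted p given so far come from the fit without the replicate block. With the block, averaged over PDGF-AA, the count was 5 of 27 for pA against control AMO (Ccng1, Eda2r, Ei24, Zmat3 and Mdm2), where 9% of clusters had such a p. It was 1 of 27 for 5'ss against control AMO (12.4% of clusters) and 2 of 27 for pA against 5'ss AMO (8.51%). Without PDGF-AA these comparisons gave 3 (Trp53inp1, Bbc3 and Mdm2), 0 and 0 of 27, against 4.62%, 4.89% and 5.41% of clusters. With PDGF-AA they gave 4 (Eda2r, Ccng1, Zmat3 and Ei24), 5 (Sesn1, Ei24, Fas, Btg2 and Gadd45a) and 1 of 27 (Eda2r), against 13.5%, 15.6% and 8.16% of clusters. None of these genes passed after adjustment over all clusters.

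**Figure D3:**
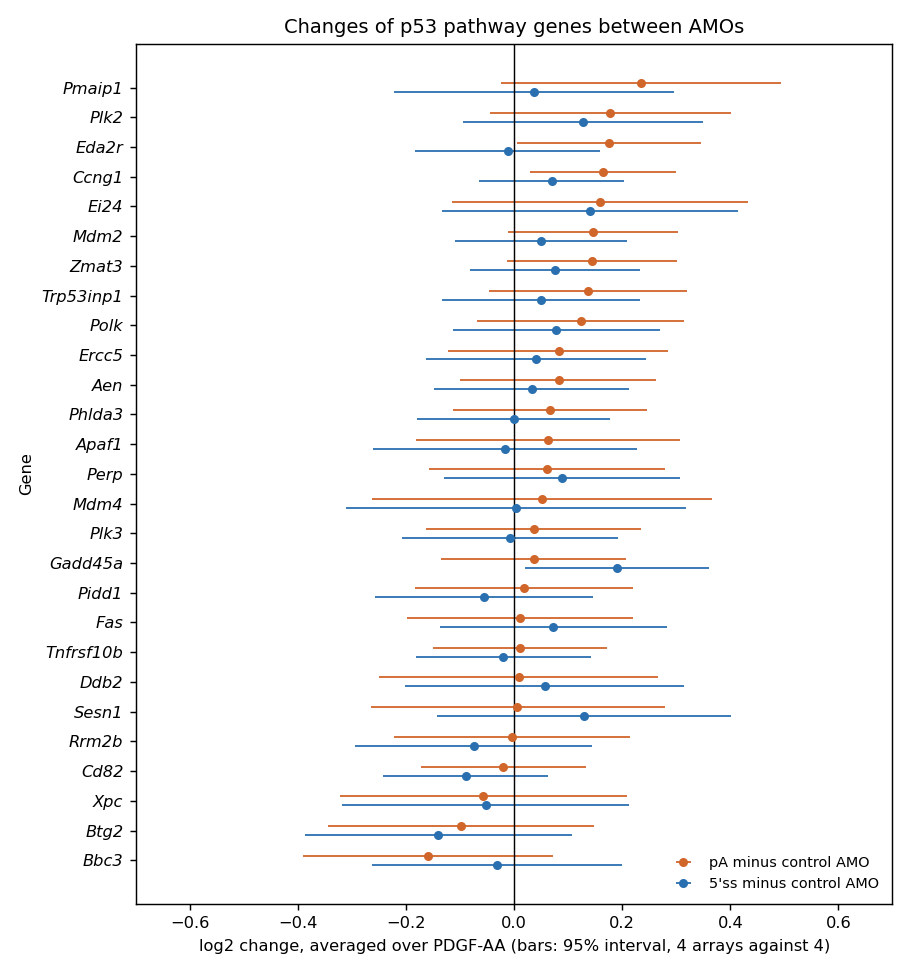
Log2 change of each of the 27 genes (y axis) for pA minus control AMO (orange) and 5'ss minus control AMO (blue), averaged over PDGF-AA, with bars for the 95% interval of each gene (x axis, log2 units, 4 arrays against 4). The points lie between -0.16 and 0.23, and the pA points of Ccng1 (0.17) and Eda2r (0.18) and the 5'ss point of Gadd45a (0.19) have intervals above 0, none of which passed after adjustment.

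PDGF-AA itself was then compared with no PDGF-AA. Averaged over AMOs 12 of 27 genes were above 0 (all clusters 50.8%), with a median of -0.0040, and 0 of 27 had an unadjusted p under 0.05 (3.39% of clusters) or no overlap between the 6 arrays on each side (0.165% of clusters higher and 0.115% lower). Sesn1, Fas and Mdm4 had the smallest p, at -0.22 (SE 0.10), -0.15 (SE 0.077) and -0.19 (SE 0.116), with adjusted p = 1 in limma and 0.325, 0.378 and 0.386 with the block, a block under which 0.0964% of clusters passed. These differences were largest with control AMO. There Sesn1 stood at 8.56 and 8.67 without PDGF-AA and at 7.91 and 8.40 with it, so that the groups did not overlap. Fas stood at 8.64 and 8.74 without and at 8.23 and 8.50 with PDGF-AA, again without overlap. The changes were -0.46 (SE 0.173) for Sesn1, -0.33 (SE 0.133) for Fas and -0.34 (SE 0.200) for Mdm4. Within replicates 1 and 2 Sesn1 was at -0.645 and -0.274, and Fas at -0.416 and -0.235.

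With control AMO 4 of 27 genes were lower with PDGF-AA with no overlap, where 13.6% of clusters were, and 1 of 27, Cd82, was higher, where 17.5% were. The unadjusted count with control AMO was 2 of 27, Sesn1 and Fas (4.81% of clusters), and 11 of 27 were above 0 (53.3%), 4 within replicate 1 and 19 within replicate 2. Under pA AMO Fas was at -0.16 (SE 0.133) and under 5'ss AMO at 0.021, and Sesn1 at -0.14 and -0.058 (SE 0.173 each). The difference between the PDGF-AA effects of 5'ss and control AMO was 0.35 for Fas (SE 0.189) and 0.40 for Sesn1 (SE 0.245), and neither passed in limma (adjusted p = 1 for both, and 0.526 and 0.565 with the block). With pA AMO 3 of 27 genes were higher and 4 lower with PDGF-AA with no overlap (11.4% and 12.3% of clusters), and Eda2r was at 0.20 (SE 0.108). With 5'ss AMO 3 of 27 were higher and 3 lower (9.13% and 10.5% of clusters), with Bbc3 at 0.21 (SE 0.147) and Plk3 at -0.18 (SE 0.127). The unadjusted count was 0 of 27 for both of these AMOs (2.37% of clusters for pA and 1.64% for 5'ss), and 13 and 17 of 27 were above 0 (47.4% and 48%). For the differences between PDGF-AA effects it was 0 of 27 in all 3 (2.95% of clusters for 5'ss against control, 2.59% for pA against control and 1.92% for pA against 5'ss AMO), with 13, 18 and 11 of 27 above 0 (46.2%, 47.8% and 50.2%). With the block the unadjusted count was 3 of 27 for averaged PDGF-AA (8.02% of clusters) and 3 of 27 with control AMO (12.7%), Sesn1, Fas and Mdm4 in both. It was 0 of 27 with pA and with 5'ss AMO (5.9% and 4.53% of clusters). For the 3 differences it was 2 (Fas and Sesn1), 0 and 0 of 27 (7.94%, 8.55% and 5.31% of clusters).

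The replicate number came with larger differences in many of these genes than either treatment. Its median share of variance over the 27 genes was 23.8%, against 14.2% for AMO and 3.9% for PDGF-AA, and over all clusters these shares were 27.0%, 13.4% and 3.5%. In all 6 groups 9 of the 27 genes were lower in replicate 1 than in replicate 2, where 17.0% of clusters were, and 0 were higher in all 6, where 14.0% were. Among the 9 were Mdm4, Sesn1, Fas, Btg2 and the repair genes Ddb2, Polk and Ercc5, and Mdm4 differed between replicates 1 and 2 by a mean of -0.31. No label says what the replicates share. A single array stood apart as well: control AMO with PDGF-AA replicate 1 held the lowest value of 15 of the 27 genes. No share over all clusters was taken for this count, so it does not show whether this is particular to the p53 genes. The median deviation of the 27 genes from their means was -0.16 on that array and lay between -0.053 and 0.11 on the other 11. That array also had the highest median of all 35556 clusters, 6.23 where the others lay between 6.04 and 6.19. Array medians followed the replicate number: they were 6.14 to 6.23 on the replicate 1 arrays and 6.04 to 6.10 on the replicate 2 arrays. The part of these array-wide levels in the results, the replicate differences included, was not tested.

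Genes around the members, from lists written for this comparison, were read from the same fit, and in limma 0 of them had an adjusted p under 0.05 in the averaged comparisons between AMOs or for averaged PDGF-AA, with or without the block. Of 24 regulators of p53, such as kinases of the damage response, 16 were above 0 with pA and 17 with 5'ss AMO (medians 0.015 and 0.032). The deacetylase gene Sirt1 was highest in both, at 0.17 and 0.31 (SE 0.157 each). Of 33 further p53 targets 17 were above 0 with pA and 9 with 5'ss AMO (medians 0.015 and -0.028). Their ends with 5'ss AMO were Igfbp3, an IGF-binding protein, at 0.27 (SE 0.136) and Pml, of the nuclear bodies, at -0.27 (SE 0.097). The 12 genes of the BCL2 family had medians of 0.0070 and 0.0020, with 6 above 0 in each.

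Other stress programs were set beside the p53 genes. Of 19 genes of the ATF4 and CHOP response to protein and amino acid stress, 9 were above 0 with pA and 12 with 5'ss AMO (medians -0.0030 and 0.040), and the cystine transporter Slc7a11 was highest, at 0.35 and 0.29 (SE 0.146 each). Of 19 cell cycle genes that p53 represses through p21, 14 were above 0 with pA AMO (median 0.073) and 0 with 5'ss AMO (median -0.11), with the mitotic kinase gene Plk1 at -0.34 (SE 0.132). The 5'ss values differed between doses: 7 of 19 were above 0 without PDGF-AA (median -0.020) and 0 of 19 with it (median -0.23). The median deviation of these genes from their means was -0.34 on replicate 1 and 0.0020 on replicate 2 of the 5'ss group given PDGF-AA. Of 19 interferon response genes, 12 were above 0 with pA AMO (median 0.093) and 0 with 5'ss AMO (median -0.38). Irf7, an interferon regulatory factor, was at -0.93 (SE 0.217, adjusted p = 0.684, and 0.135 with the block, in limma) with 5'ss AMO, and the chemokine Cxcl10 at 0.98 (SE 0.447) with pA AMO. The pA average joined values of opposite sign: 3 of 19 were above 0 without PDGF-AA (median -0.15) and 15 of 19 with it (median 0.34), where Cxcl10 was at 2.08 (SE 0.632). The median deviation of the interferon genes was 0.66 on replicate 1 and 0.038 on replicate 2 of the pA group given PDGF-AA. With 5'ss AMO 0 of 19 were above 0 without PDGF-AA (median -0.45) and 3 of 19 with it (median -0.35). In the replicate 1 cultures that received the growth factor, the interferon median deviation was -0.46 under 5'ss AMO and 0.35 under control AMO. The replicate 2 pair read 0.037 and -0.085, so there the 5'ss level was not the lower one. In cultures without PDGF-AA both 5'ss arrays (-0.54 and -0.24) lay below both control arrays (0.049 and 0.16).

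**Figure D4:**
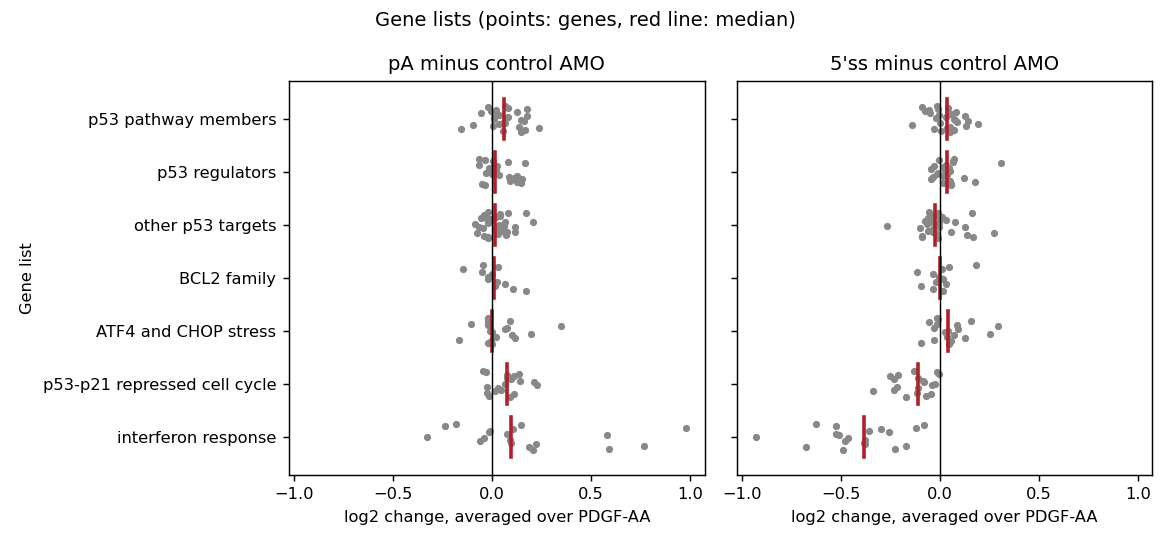
Log2 change averaged over PDGF-AA (x axis) for the genes (grey points) and the median (red line) of 7 gene lists (y axis), for pA minus control AMO on the left and 5'ss minus control AMO on the right. The p53 pathway medians are 0.061 and 0.037, and all 19 interferon genes lie below 0 in the right panel.

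The cultures carried most of the markers chosen for their label. Of 11 FAP marker genes chosen, 10 were measured, and Ly6a had no cluster with a single symbol. The 10 lay above the 40 percent mark, with Pdgfra between 12.72 and 12.92. Their summed level (log2 of the summed linear values) was 15.74 to 15.85 with control, 15.74 to 15.83 with pA and 15.74 to 15.80 with 5'ss AMO. Markers of other cells were present too. The summed level of 11 myogenic markers, 9 above the mark, was 10.61 to 11.89, 11.02 to 12.15 and 10.87 to 11.65, with Myod1 between 6.39 and 7.13 and Myog between 6.23 and 7.51. The 7 adipocyte markers, all above the mark, summed to 12.05 to 12.69, 12.08 to 12.67 and 12.02 to 12.94, with Adipoq between 5.53 and 9.31. Pecam1 of endothelial cells (5.36 to 5.88) and Ptprc of leukocytes (4.75 to 5.35) were below the mark. Other genes of these lists had means above it. They were Tek (8.51 to 9.26) and Cdh5 (6.84 to 7.5) among the endothelial markers. Among the macrophage and leukocyte markers they were Cd68 (7.08 to 7.44), Lyz2 (5.86 to 7.48) and Cd14 (6.55 to 7.06). The 6 endothelial markers, 2 above the mark, summed to 9.5 to 9.88, 9.47 to 9.64 and 9.44 to 9.62, and the 7 macrophage and leukocyte markers, 3 above it, to 8.75 to 9.09, 8.93 to 9.03 and 8.92 to 9.14. The 6 smooth muscle and pericyte markers, 4 above it, summed to 9.10 to 9.26, 9.20 to 9.31 and 9.25 to 9.31. The summed levels overlapped between the AMOs for each of these lists, but a sum follows its brightest genes. Some comparisons of single groups had marker medians further from 0, with wide differences between the replicates of a group. For 5'ss against control AMO in cells given PDGF-AA 6 of 7 adipocyte markers were above 0, with a median of 1.12 and the fatty acid transporter gene Cd36 at 2.01 (SE 1.08). The median deviation of the adipocyte markers was 1.17 and 0.34 on those 5'ss arrays and -1.04 and 0.33 on those control arrays (replicates 1 and 2). For pA against control AMO without PDGF-AA 10 of 11 myogenic markers were above 0 (median 0.43), and for PDGF-AA with pA AMO 0 of 11 were (median -0.46). Without PDGF-AA the myogenic median deviation was 0.635 and -0.029 on the pA arrays and 0.309 and -0.49 on the control arrays, which overlapped. On the pA arrays with PDGF-AA it was 0.078 and -0.292, which overlapped with the pA arrays without it. None of these markers passed in limma, with or without the block, and the part of other cells in the p53 values was not tested.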

How the data were processed

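Values came from the deposited table, where the authors gave log2 expression after RMA (Affymetrix Expression Console, version not stated, from the submitters' processing notes). RMA corrects background, quantile-normalizes the arrays and summarises probes per transcript cluster, so shifts common to all genes are reduced. Array medians still lay between 6.04 and 6.23, and every replicate 1 array was above every replicate 2 array. The number of arrays limits the precision.

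Using limma 3.58.1 in R 4.3.3, 1 model with a mean per group (6 groups, 12 arrays, 6 residual degrees of freedom, or 5 with the replicate block) covered the 21789 single-symbol clusters. P-values were Benjamini-Hochberg adjusted over all of them, with a threshold of 0.05, and intervals use the moderated degrees of freedom. The fit was tested on simulated data with independent noise, no replicate difference and planted changes of at least 1 log2 unit. That test does not cover differences as small as those of the members. Comparisons that name the same AMO share its arrays.

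Replicate numbers 1 and 2 recur in every group. Their arrays deviated together: in all 15 pairs of groups the correlation of deviations was 0.20 to 0.61, above the criterion of 0.1. The numbers were therefore taken to pair the samples, a hint from the data, since no label says it. The SEs and intervals given nevertheless come from the fit without the block, which does not use this pairing. With the block the SE of the averaged AMO comparisons was 0.070 in place of 0.142 for Mdm4 and 0.063 in place of 0.123 for Ei24. For Pmaip1 it was 0.115 in place of 0.117. P-values set a difference against the spread between arrays of a group, which without the block includes the difference between replicate numbers. No label says whether arrays of a replicate number share a pool of mice. If they do, the 4 arrays of an AMO are not 4 independent pools.

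Promoter sequences are RefSeq's. The members and lists were chosen with earlier results of these data known. Named by rule were Mdm2, the 3 genes with the smallest p in each comparison between AMOs and for averaged PDGF-AA, those of highest or lowest level and of widest range, and the highest or lowest gene of other lists. Further members are named by role or, as Aen, for a promoter match. Settings varied were the clusters tested (those above a mean log2 of 6.10, or all 35556) and the normalization (quantile again, or centred medians). Also varied were the moderation, weights per array, the groups in the model, and 1 array left out at a time. A mean over the clusters of a gene was taken too, without a test, but could change nothing, as each member had 1 cluster.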

Additional observations from a re-analysis of the deposited data

How the results depend on the processing

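No member passed in any of the comparisons under any alternative, the replicate block included (0 of 27 each), and the smallest adjusted p of a member was 0.167 in limma. The replicate block changed no call of a member. It raised the number of all clusters passing from 0 to 3 for 5'ss against control AMO, 6 for pA against 5'ss AMO and 21 for PDGF-AA, each averaged, and to 22 for 5'ss against control AMO in cells given PDGF-AA. Trend and robust moderation gave 7, 2, 39 and 6 for these. Leaving out 1 array without the block also takes in the difference between replicates.

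Without control AMO with PDGF-AA replicate 1, the number of members above 0 for pA against control AMO was 14 of 27 in place of 22, and over all arrays left out in turn it ran from 14 to 24. When each array was left out in turn, the median change ran from -0.065 to 0.165 for 5'ss and from -0.022 to 0.218 for pA against control AMO in cells given PDGF-AA. For PDGF-AA it ran from -0.121 to 0.065 with control AMO and from -0.053 to 0.088 with pA AMO. The difference between PDGF-AA effects ran from -0.023 to 0.122 for 5'ss against control, from -0.028 to 0.148 for pA against control and from -0.09 to 0.085 for pA against 5'ss AMO. Mdm2 changed sign for 5'ss against control AMO averaged over PDGF-AA (range -0.002 to 0.101, and -0.001 with both the replicate block and that array left out). With PDGF-AA its sign changed too (range -0.103 to 0.102, and 0.044 with median centring), as it did for pA against control AMO there (range -0.008 to 0.197, and -0.006 with the block and without that array). The cause was not tested. Medians under the other alternatives moved by less than the pooled SD of the array score, 0.0857. The medians were themselves mostly smaller than this SD, so the criterion cannot show that a sign was kept. The averaged 5'ss minus control median, 0.037, reached -0.001 at its lowest. In PDGF-AA-treated cells the same difference went from 0.062 to -0.008. The pA minus control medians stayed positive, from 0.017 to 0.070 when averaged. With 2 arrays a group, differences of the size seen here did not pass the adjusted test.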
